A study of Mus musculus with 2 samples.

Results

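The genes described here are 9 markers of homeostatic microglia: P2ry12, P2ry13, P2ry6, Gpr34, Cx3cr1, Tmem119, Siglech, Sall1 and Olfml3. They were picked by symbol out of the 31053 genes in the count matrices, and all 9 were found. The study loaded retinal cells held on CD45 beads, which bind a surface protein of leukocytes, onto 10x Genomics droplets and counted unique molecular identifiers (UMIs, 1 per captured transcript). There were 2 libraries, both from C57BL/6 mice aged 6 to 8 weeks with optic nerve injury, sampled at the 2 weeks that the titles mark. The MSC-sEV library came from mice given MSC-sEV, a name the labels do not spell out, and the PBS library came from injured mice given PBS. Each library was a pool of retinas from 6 mice and each group had 1 library, so no difference between the groups could be tested. The ranges given after values and ratios are exact 95% intervals that cover counting error only.

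Microglia are the resident macrophages of the retina and brain. In undisturbed tissue they hold a gene programme that depends on transforming growth factor beta and on the transcription factor Sall1, and its surface proteins read nucleotides, lysophospholipids and fractalkine released by nearby cells. In many injury and disease models transcripts of this programme become less abundant as microglia become reactive. Macrophages that arrive from blood are known to carry little of it.

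P2ry12 and P2ry13 are neighbours on mouse chromosome 3. In GENCODE M21 (GRCm38, the assembly that mm10 names) P2ry12 spans chr3:59216272-59262871 and P2ry13 spans chr3:59207892-59210882, both on the minus strand, with 5389 bases between them. Both lie within the span of Med12l. None of the 9 members shares an exon on its own strand with another gene in the matrices. RefSeq promoters (GRCm38.p6, 250 bases before to 50 after the start) were at hand for 6 members, and those of P2ry12, P2ry13 and Cx3cr1 are shown because the first pair are the neighbours that were lower together in the microglia-like cells and Cx3cr1 had the highest level of the 9. The windows are chr3:59262936-59263235 for P2ry12, chr3:59210833-59211132 for P2ry13 and chr9:120068247-120068546 for Cx3cr1, each read 5′ to 3′ on the minus strand, and capitals mark GGAA or its reverse complement TTCC, the core that ETS factors such as PU.1 bind.
P2ry12: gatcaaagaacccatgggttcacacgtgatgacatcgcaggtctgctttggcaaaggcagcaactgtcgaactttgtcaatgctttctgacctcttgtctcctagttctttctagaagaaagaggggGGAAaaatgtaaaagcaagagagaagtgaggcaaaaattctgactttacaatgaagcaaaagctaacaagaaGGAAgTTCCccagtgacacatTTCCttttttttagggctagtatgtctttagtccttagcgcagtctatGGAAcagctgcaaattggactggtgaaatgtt
P2ry13: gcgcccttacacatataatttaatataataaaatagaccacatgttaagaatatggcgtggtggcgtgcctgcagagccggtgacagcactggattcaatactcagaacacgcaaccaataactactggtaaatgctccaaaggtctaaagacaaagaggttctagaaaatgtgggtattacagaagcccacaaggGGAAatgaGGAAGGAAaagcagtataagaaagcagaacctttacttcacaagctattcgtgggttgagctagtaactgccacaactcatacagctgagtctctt
Cx3cr1: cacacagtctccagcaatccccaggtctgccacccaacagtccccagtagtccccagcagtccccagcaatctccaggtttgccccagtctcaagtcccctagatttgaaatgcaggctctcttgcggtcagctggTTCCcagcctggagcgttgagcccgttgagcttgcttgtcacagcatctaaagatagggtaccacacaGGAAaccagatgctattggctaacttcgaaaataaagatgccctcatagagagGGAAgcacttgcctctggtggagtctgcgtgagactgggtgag
The P2ry12 window held 5 such cores, the P2ry13 window 3 and the Cx3cr1 window 3, against a median of 3 over 32851 promoters, of which 96.0% held at least 1. Siglech and Olfml3 had 6 cores each. The longer PU.1 word GAGGAAGT was in none of the members' windows and in 3.20% of all promoters. The MEF2 words TATTTATA and TAAAAATA (1.70% and 2.72% of promoters) and the AP-1 word TGACTCA (5.20%) were in none either. The SMAD word CAGACA was in the Siglech window alone, and in 21.04% of promoters. All words were searched on both strands.

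After the cell filter (at least 500 UMIs, 300 genes and at most 15% mitochondrial UMIs) the MSC-sEV library kept 2323 of 2593 barcodes and the PBS library 1347 of 1676, with no barcode sequence shared. Median depth was 2920 UMIs in MSC-sEV cells and 2601 in PBS cells, and the CD45 gene Ptprc was seen in 28.4% and 5.12% of them. C1q-positive cells, defined by at least 5 UMIs of C1qa, C1qb and C1qc together, numbered 560 (24.1%) in MSC-sEV and 196 (14.6%) in PBS. Clusters were built without the 9 members. Of the MSC-sEV C1q-positive cells, 319 (57.0%) lay in the microglia-like clusters 6 and 7, 209 (37.3%) in other leukocyte clusters and 32 (5.71%) in retinal or unnamed ones. Of the PBS C1q-positive cells, 92 (46.9%) lay in the microglia-like clusters, 0 in other leukocyte clusters, which allows a share of up to 1.86%, and 104 (53.1%) in retinal or unnamed clusters. All 10 markers of the microglia-like class were detected in C1q-positive cells of both libraries, but these include C1qa, C1qb and C1qc, which set the gate. All 12 rod and all 11 Muller glia markers were detected in the same cells too, so detection does not tell which cells these are. The Muller glia markers used here include Apoe, which the microglia-like cells also carried. Rod, cone and Muller glia markers took a median of 0.776% of a C1q-positive cell's UMIs in MSC-sEV and 6.26% in PBS, and the part of this difference in makeup in the ratios over all C1q-positive cells was not tested. For that reason the ratio of each member between the libraries is given over all C1q-positive cells and then within the microglia-like clusters, a gate added after the data were seen. Within those clusters cluster 7 held most of the cells in MSC-sEV (187 against 132 in cluster 6) and cluster 6 most of them in PBS (52 against 40 in cluster 7).

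Levels were compared at equal depth: cells with at least 1000 UMIs were drawn down to 1000 UMIs each, which left 538 C1q-positive cells in MSC-sEV and 180 in PBS, and a gene's UMIs were summed and given per 1000000 UMIs (CPM). The rod-like cells of the same libraries with fewer than 5 C1q UMIs, which should lack all 9 genes, gave the background. In them the 9 genes together were at 15.0 CPM (5.49 to 32.6) in MSC-sEV and 17.4 CPM (7.001 to 35.9) in PBS. The summed level in C1q-positive cells was 2721 CPM (2584 to 2864) in MSC-sEV and 2828 CPM (2587 to 3085) in PBS, so the members stood clear of the background in both.

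P2ry12, the ADP receptor that steers microglial processes towards injured cells, was lower in MSC-sEV. It was at 180.3 CPM (146 to 219.9) in MSC-sEV C1q-positive cells and 383 CPM (298 to 485) in PBS ones, a 2.13-fold lower level (1.54 to 2.93). These intervals do not overlap. In the microglia-like clusters alone P2ry12 was at 249 CPM (196 to 312) in MSC-sEV and 772 CPM (591 to 992) in PBS, a ratio of 0.323 (0.227 to 0.460). It was seen in 19.3% of the drawn-down MSC-sEV cells of those clusters and 49.4% of the PBS ones, and in 0 of 401 and 0 of 402 rod-like cells.

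Gpr34, a receptor for lysophosphatidylserine, had nearly the same pattern as P2ry12. It was at 167 CPM (135 to 206) in MSC-sEV C1q-positive cells and 378 CPM (293 to 479) in PBS ones, 2.26-fold lower (1.62 to 3.13). Its level in the microglia-like clusters was 256 CPM in MSC-sEV and 696 CPM in PBS, a ratio of 0.367 (0.257 to 0.529).

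P2ry13, the other ADP receptor, was the least abundant member in MSC-sEV. It had 37 drawn UMIs in MSC-sEV C1q-positive cells and 16 in PBS ones, or 68.8 CPM (48.4 to 94.8) and 88.9 CPM (50.8 to 144), and the ratio of 0.774 had an interval from 0.420 to 1.49 that holds 1. Microglia-like clusters alone had it at 93.0 CPM in MSC-sEV and 189.9 CPM in PBS, a ratio of 0.490 (0.253 to 0.987).

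P2ry6, the UDP receptor that starts phagocytosis in microglia, did not share the direction of the ADP receptors P2ry12 and P2ry13. It was at 173 CPM (139.5 to 212) in MSC-sEV C1q-positive cells and 106 CPM (63.6 to 165) in PBS ones, a ratio of 1.64 (0.992 to 2.84). Within the microglia-like clusters its levels were 233 CPM in MSC-sEV and 177 CPM in PBS, with a ratio of 1.31 (0.733 to 2.52). Both intervals hold 1 at this depth. Over all UMIs, with cells at their own depths, the P2ry6 ratio was 2.81 (2.42 to 3.28) in C1q-positive cells and 1.31 (1.08 to 1.58) in the microglia-like clusters, and both of these intervals lie above 1.

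Cx3cr1, the fractalkine receptor, made up the largest share of the summed level. It was at 1095 CPM (1008 to 1187) in MSC-sEV C1q-positive cells and 922 CPM (787 to 1074) in PBS ones, a ratio of 1.19 (0.998 to 1.42). Within the microglia-like clusters the order turned round, with 1598 CPM (1458 to 1747) in MSC-sEV and 1949 CPM (1654 to 2283) in PBS and a ratio of 0.820 (0.682 to 0.989). Its direction therefore depends on which C1q-positive cells are counted.

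Tmem119, a membrane protein that marks microglia among brain macrophages, was at 219 CPM in MSC-sEV C1q-positive cells and 283 CPM in PBS ones, a ratio of 0.774 (0.553 to 1.10). Counting only microglia-like clusters gave a ratio of 0.586 (0.412 to 0.846), from 349 CPM in MSC-sEV and 595 CPM in PBS. Siglech, a sialic acid binding lectin of microglia and plasmacytoid dendritic cells, was at 288 CPM in MSC-sEV C1q-positive cells and 306 CPM in PBS ones (ratio 0.943, 0.689 to 1.31). There Siglech was at 422 CPM in MSC-sEV and 646 CPM in PBS (ratio 0.654, 0.469 to 0.923). With C1q at least 0.5% of a cell's UMIs, the ratio was 0.548 (0.390 to 0.779) for Tmem119 and 0.680 (0.492 to 0.955) for Siglech. Over all UMIs of all C1q-positive cells it was 0.882 (0.798 to 0.978) for Tmem119 and 1.13 (1.03 to 1.23) for Siglech, so the direction of Siglech turned with the setting.

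Olfml3, a secreted olfactomedin family protein, was at 374 CPM in MSC-sEV C1q-positive cells and 294 CPM in PBS ones, and the ratio of 1.27 (0.933 to 1.75) became 0.888 (0.638 to 1.26) within the microglia-like clusters. Sall1, the transcription factor that holds microglial identity, had the highest ratio of the 9 at this depth and in these cells. Without drawing down P2ry6 stood above it, at 2.81 against 2.56 for Sall1, and without cells rich in retinal markers Sall1 fell below 1, at 0.852. Sall1 had 84 drawn UMIs in MSC-sEV C1q-positive cells and 12 in PBS ones, or 156 CPM (124.5 to 193) and 66.7 CPM (34.5 to 116.5), a ratio of 2.34 (1.27 to 4.71). Within the microglia-like clusters Sall1 was at 219 CPM in MSC-sEV and 127 CPM in PBS, and the interval of its ratio of 1.73 (0.885 to 3.78) holds 1. Over all UMIs of those clusters the ratio was 1.29 (1.06 to 1.57) for Sall1 and 0.822 (0.748 to 0.903) for Olfml3, and neither interval holds 1.

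**Figure D1:**
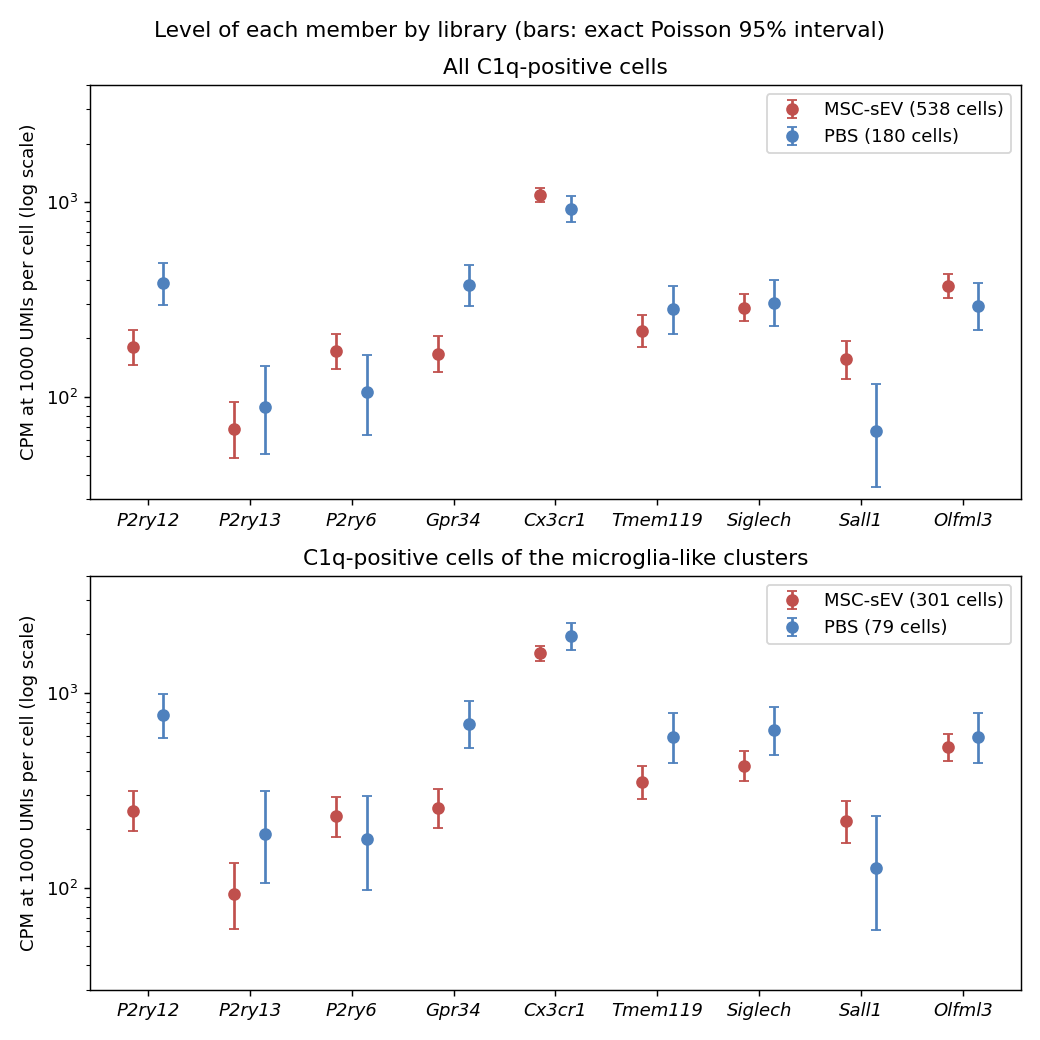
Level of each member (CPM after drawing each cell down to 1000 UMIs, log axis) in MSC-sEV (red, left) and PBS (blue, right), over all C1q-positive cells above and over those of the microglia-like clusters below, with exact Poisson 95% intervals. P2ry12 and Gpr34 are lower in MSC-sEV in both panels (180.3 against 383 CPM and 167 against 378 CPM above), while the intervals of P2ry6 overlap.

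Over all C1q-positive cells 2 of the 9 members were at least 2-fold lower in MSC-sEV, Gpr34 and P2ry12, among 13.1% of all 5345 genes with at least 20 drawn UMIs, and 1 was at least 2-fold higher, Sall1, among 23% of all genes. Without drawing down, P2ry12 had a ratio of 0.591 and Gpr34 one of 0.569, so 0 members were 2-fold lower. The count was 6 without the cells rich in retinal markers and 1 without cells with monocyte genes. The share over all genes was not counted in those settings, so these counts have no background beside them. Over all C1q-positive cells at 1000 UMIs the median log2 ratio was -0.08 for the members and 0.14 for the 5345 genes. Within the microglia-like clusters 3 of 9 were at least 2-fold lower (P2ry12, Gpr34 and P2ry13), against 6.63% of 3016 genes, and 0 were at least 2-fold higher, against 14.2%. The median log2 ratio there was -0.61 for the members and 0.14 for all genes. The summed level of the 9 within those clusters was 3947 CPM (3726 to 4178) in MSC-sEV and 5747 CPM (5230 to 6301) in PBS.

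Over all C1q-positive cells the ratios ran from Gpr34 and P2ry12 at the low end through P2ry13, Tmem119, Siglech, Cx3cr1 and Olfml3 to P2ry6 and Sall1 at the high end, and the microglia-like clusters gave that order too, except that Gpr34 and P2ry12 changed places. Neighbours in that order had overlapping intervals, whereas the interval of P2ry12 over all C1q-positive cells (0.342 to 0.650) ended below the lower bounds of Cx3cr1 (0.998), Olfml3 (0.933), P2ry6 (0.992) and Sall1 (1.27). The sum moved with the gate. Its ratio was 0.962 (0.869 to 1.07) over all C1q-positive cells, 0.687 within the microglia-like clusters, 0.529 (0.469 to 0.597) within cluster 7 and 1.14 (0.882 to 1.498) within cluster 6, whose C1q-positive cells were shallower (median 2898 UMIs in MSC-sEV and 2033 in PBS, against 14598 and 9875 in cluster 7). Within cluster 6 only P2ry12 (0.456) and Gpr34 (0.342) were lower in MSC-sEV. Every other member there had a ratio above 1, with P2ry13 at 1.71, Tmem119 at 1.48, Cx3cr1 at 1.88 and Olfml3 at 1.555. Within cluster 7 those members were at 0.351, 0.412, 0.617 and 0.648. Where the rod, cone and Muller glia markers were at most 2% of a cell's UMIs, which left 436 drawn-down cells in MSC-sEV and 44 in PBS, the ratio of the sum was 0.397 (0.352 to 0.449), with 3032 CPM in MSC-sEV and 7636 CPM in PBS. In that set 6 members were at least 2-fold lower, but the share over all genes was not counted there. P2ry12 was at 202 CPM in MSC-sEV and 1091 CPM in PBS. Apoe, 1 of the Muller glia markers, was at 6199 CPM in MSC-sEV and 12329 CPM in PBS in the microglia-like clusters. The cut could therefore also leave out cells for Apoe of their own, unequally by library, and the part of this was not tested.

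**Figure D2:**
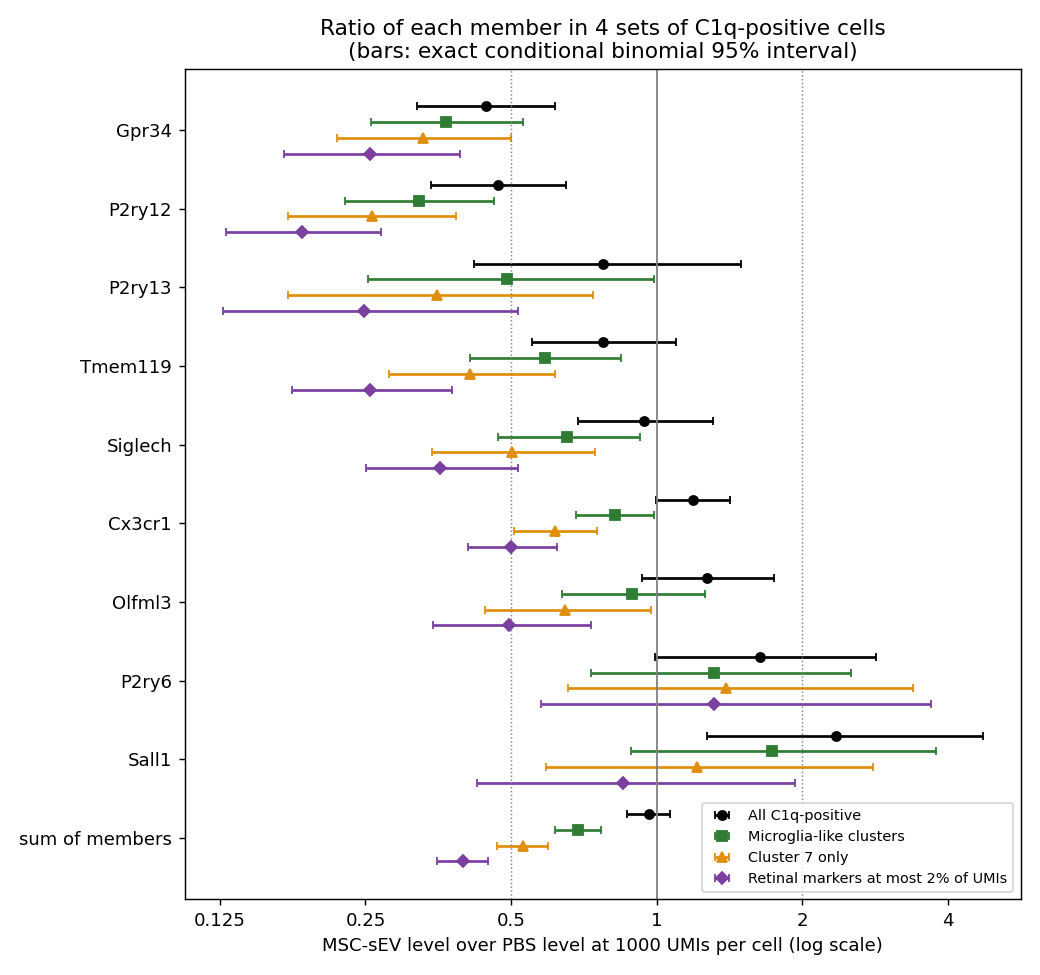
Ratio of the MSC-sEV level to the PBS level (log axis, 1000 UMIs per cell) for each member and their sum in 4 sets of C1q-positive cells, with exact conditional binomial 95% intervals and dotted lines at 2-fold. Every member's ratio is lower in the microglia-like clusters than over all C1q-positive cells, and Gpr34 and P2ry12 lie below 0.5 in all 4 sets.

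The ratio of the sum was also taken within bands of depth in the microglia-like clusters. In cells of 5000 to 15000 UMIs, with median depths of 9205 in MSC-sEV and 9016 in PBS, the summed level was 4224.5 CPM in MSC-sEV (98 cells) and 7679 CPM in PBS (28 cells), a ratio of 0.550 (0.466 to 0.652), and P2ry12 had a ratio of 0.229 (0.134 to 0.387). In cells of 2000 to 5000 UMIs the summed ratio was 0.591 (0.478 to 0.732) and above 15000 UMIs it was 0.692 (0.545 to 0.887). Below 2000 UMIs it was 1.98 (1.20 to 3.45), from 30 drawn-down cells in MSC-sEV and 13 in PBS, so the direction was the opposite in the shallowest cells.

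In the deeper cells, counts per cell had the same order as the sums. The C1q-positive cells of the microglia-like clusters with at least 5000 UMIs, a depth chosen after the data were seen, were drawn down to 5000 UMIs, which left 189 cells in MSC-sEV and 40 in PBS. This left out most C1q-positive cells of cluster 6 (median 2898 UMIs in MSC-sEV and 2032.5 in PBS), where the summed ratio was 1.14. It also left out the shallowest band, where the direction was the opposite. A median of 6 of the 9 members was seen per cell in MSC-sEV and 8 in PBS, and all 9 were seen in 15 cells (7.94%) in MSC-sEV and 9 cells (22.5%) in PBS. The members' summed UMIs per cell had a median of 20 in MSC-sEV (quartiles 13 and 29) and 40.5 in PBS (quartiles 24.75 and 59), so the lower quartile in PBS lay above the median in MSC-sEV. P2ry12 was seen in 70.9% (63.9 to 77.3) of these cells in MSC-sEV and 90.0% (76.3 to 97.2) in PBS, with medians of 1 UMI in MSC-sEV and 5 in PBS. Cx3cr1 was seen in nearly all cells, 95.8% in MSC-sEV and 95% in PBS, with medians of 8 UMIs in MSC-sEV and 13.5 in PBS. Sall1 was seen in 66.7% (59.5 to 73.3) in MSC-sEV and 55.0% (38.5 to 70.7) in PBS, and P2ry6 in 60.9% in MSC-sEV and 52.5% in PBS. Across these cells the 36 pairs of members had a median Pearson r of 0.24 in MSC-sEV and 0.58 in PBS on log2(UMIs + 1), a description over cells of 1 library drawn to 1 depth.

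**Figure D3:**
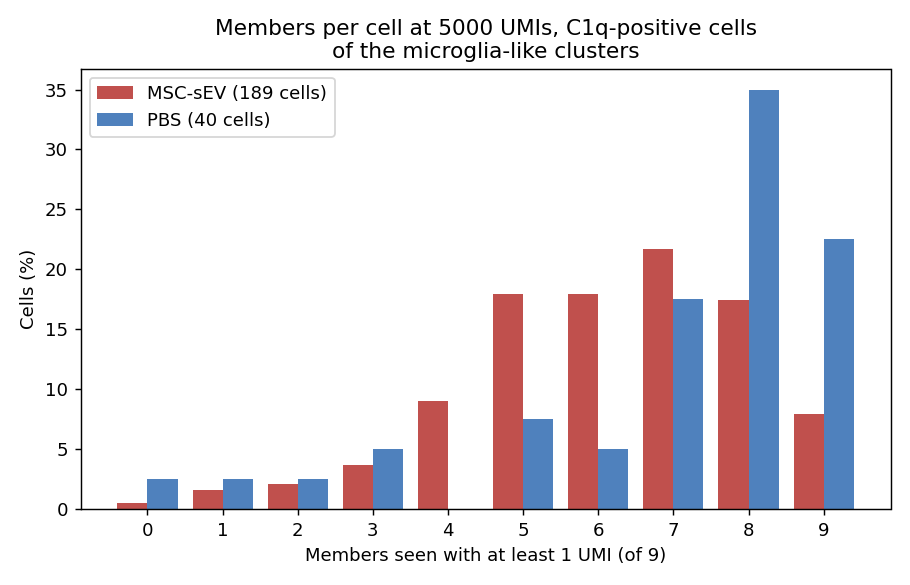
Share of cells (%) by how many of the 9 members had at least 1 UMI, in C1q-positive cells of the microglia-like clusters drawn down to 5000 UMIs, MSC-sEV in red on the left and PBS in blue on the right of each pair. The PBS cells peak at 8 members and the MSC-sEV cells at 7, with 47.1% of MSC-sEV cells and 75% of PBS cells at 7 or more.

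Outside C1q-positive cells the members were lower, but above the rod-like cells in other leukocytes. Leukocyte clusters other than the microglia-like ones were all in the MSC-sEV library, and 315 of their cells had fewer than 5 C1q UMIs (258 of them deep enough to draw down). The summed level was 202 CPM (150.5 to 264) in these cells and 2721 CPM in the C1q-positive cells of the same library, a ratio of 0.0741 (0.0551 to 0.0977). Among them the monocyte-like ones (cluster 8) stood at 383 CPM (268 to 530). Those of clusters 10, 12 and 13 were lower, at 111 CPM (50.8 to 211), 109 CPM (35.3 to 254) and 54.1 CPM (6.55 to 195). The last interval overlaps that of the rod-like cells. Cells of the unnamed clusters 1, 3 and 5 with fewer than 5 C1q UMIs were at 56.2, 78.95 and 54.55 CPM in this library. Presence in leukocytes outside cluster 8 is therefore less clear. Over all 258 drawn-down cells together, all 9 members were at least 2-fold lower than in the C1q-positive cells, against 12.3% of 5768 genes. Olfml3 was not seen in these 258 cells, where 3 UMIs would be 11.6 CPM, and Tmem119 had 1 UMI, Gpr34 and Sall1 2 each, and P2ry12 and P2ry13 3 each.

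The members that did reach these leukocytes were Siglech (69.8 CPM, 41.4 to 110), Cx3cr1 (62.0 CPM, 35.5 to 101) and P2ry6 (27.1 CPM, 10.9 to 55.9). In the monocyte-like cluster 8, cells with fewer than 5 C1q UMIs held P2ry6 at 60.7 CPM and Cx3cr1 at 52.0 CPM over all their UMIs, against 2.03 and 8.79 CPM in the rod-like cells of that library. Cx3cr1 is known in blood monocytes. Siglech in this cluster came from few cells: 6 cells with at least 10 Siglech UMIs, a limit set after the values were seen, held 181 of the 208 Siglech UMIs of the other leukocytes. Those 6 cells also carried the plasmacytoid dendritic cell genes Ly6d (227 UMIs), Ccr9 (115 UMIs) and Klk1 (90 UMIs), and had 0 UMIs of P2ry12, Gpr34, Tmem119, Sall1 and Olfml3.

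C1q-positive cells of the other leukocyte clusters stood between the microglia-like cells and the rest. Over all of them (207 drawn-down cells) the summed level was 1314 CPM, which was 0.333 (0.291 to 0.380) of that in the microglia-like clusters of the same library. The 124 C1q-positive cells of the monocyte-like cluster had P2ry6 at 160 CPM, Cx3cr1 at 348 CPM and P2ry12 at 45.3 CPM over all their UMIs, so P2ry6 exceeded P2ry12 there. In the microglia-like clusters of the same library P2ry12 was at 327 CPM and P2ry6 at 258 CPM on the same scale. The 61 C1q-positive cells of cluster 12, which led with T cell and division genes, had a summed level of 1933 CPM (1598 to 2319) after drawing down. Cluster 12 also met 7 of the 10 microglia-like markers. C1q-positive cells of the eosinophil-like cluster 10 were at 2385 CPM (1620 to 3385, 13 drawn-down cells). Both intervals overlap that of the microglia-like cluster 6 in MSC-sEV, 2228 CPM (1962.5 to 2520). In clusters 8 and 13 the C1q-positive cells were lower, at 927 CPM and 1000 CPM. Just inside the C1q limit, at 5 to 7 C1q UMIs, the summed level was 349 CPM in MSC-sEV (43 drawn-down cells) and 105 CPM in PBS (19 cells). Just outside it, at 3 to 4 C1q UMIs, the level was 127 CPM in MSC-sEV and 132 CPM in PBS.

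**Figure D4:**
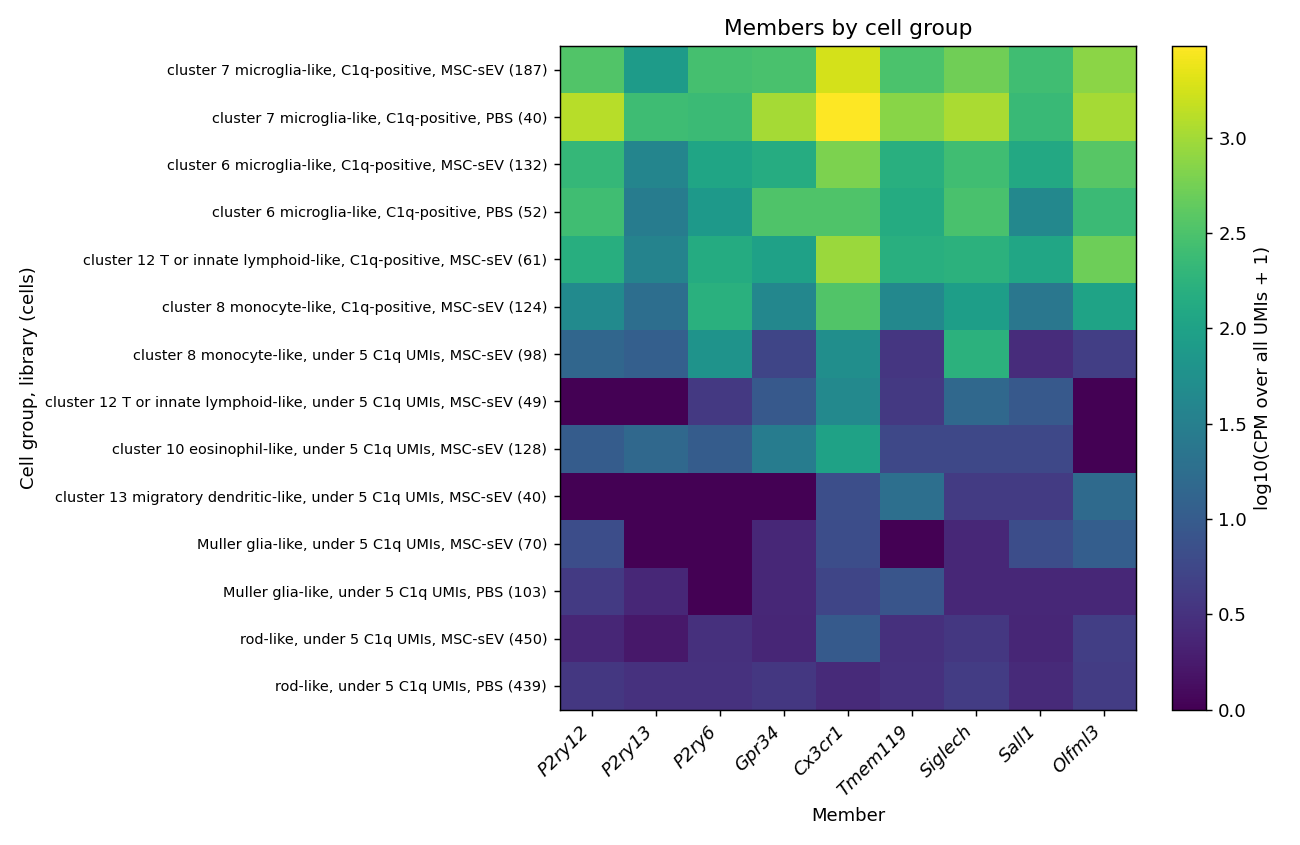
Level of each member, as log10(CPM over all UMIs + 1), by cell group and library with the number of cells in brackets. Microglia-like C1q-positive cells are high in all 9 members, and rod-like and Muller glia-like cells are low throughout. The monocyte-like cells with few C1q UMIs keep mainly P2ry6 and Cx3cr1. Their Siglech came mostly from 6 cells that also carried plasmacytoid dendritic cell genes.

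Of all UMIs of the 9 members, 97.0% in MSC-sEV and 97.5% in PBS lay in C1q-positive cells. In MSC-sEV this share ran from 90.8% for Siglech to 98.4% for Olfml3. C1q-positive cells were deeper, with medians of 11703.5 UMIs in MSC-sEV and 7460 in PBS, against 2522 and 2366 in the other kept cells. The share of all genes' UMIs in them was not counted, so the percentages have no background beside them. Over all UMIs the summed level was 2314 CPM in C1q-positive cells and 85.8 CPM in the others in MSC-sEV. In PBS these levels were 1880.5 CPM and 31.75 CPM. The genes whose levels over 26 cell groups of at least 20 cells were most like the summed members, among 10088 genes, included Ly86, Cd300c2, Ctss, Fcer1g, Trem2, Aif1, Csf1r, Pld4 and Ccl12, with Pearson r from 0.96 to 0.98. These are values over groups that share 2 libraries, and the clusters were built on such genes.

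The members were also compared within the MSC-sEV C1q-positive cells, by genes that set that library apart. Arg1, an arginase of alternatively activated macrophages, had 1187 drawn UMIs in MSC-sEV C1q-positive cells and 0 in PBS ones. Cells with Arg1 (295) had the members at 2444 CPM and cells without it (243) at 3058 CPM, a ratio of 0.799 (0.720 to 0.887), and 0 of 9 members were 2-fold lower or higher, against 7.24% and 4.67% of 4214 genes. In the microglia-like clusters alone the ratio was 0.797 (0.710 to 0.894), from 3525 CPM with Arg1 and 4425.5 CPM without it. For the same split of all C1q-positive cells, but over all UMIs, the levels were 2322 CPM with Arg1 and 2303.5 CPM without it. The ratio was 1.19 where Arg1 too was read in all UMIs, and 1.15 with a C1q limit of 3 UMIs at 1000 UMIs per cell, so its direction was not the same in all settings. At 1000 UMIs P2ry12 had a ratio of 0.578 (0.376 to 0.881), Tmem119 0.627 (0.427 to 0.916) and P2ry6 1.09 (0.710 to 1.69). By monocyte genes (at least 2 drawn UMIs of the list) 0 of 9 members were 2-fold lower, against 7.1% of genes, and 0 were 2-fold higher, against 7.45%. By MHC class II genes 0 of 9 were 2-fold lower, against 8.14% of genes, and 0 were 2-fold higher, against 5.55%. By cell cycle genes 1 of 9 was 2-fold lower, against 7.83% of genes, and 0 were 2-fold higher, against 5.34%. That 1 was P2ry13, with 2 drawn UMIs in the cells with those genes and 35 in the rest. Gpr34 had the lowest ratio by monocyte genes, 0.522, and P2ry12 the lowest by MHC class II genes, 0.650.

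A wider homeostatic list of 40 genes was read in the same cells. Of its 39 genes measured in the microglia-like clusters, 7 were at least 2-fold lower in MSC-sEV (Hpgd, Cst3, Selplg, Fcrls, Lag3, Adgrg1 and Abi3), against 6.63% of all genes. At least 2-fold higher were 0, against 14.2% of all genes. The median log2 ratio was -0.76 for the list and 0.14 for all genes. Hpgd, which breaks down prostaglandins, was at 16.6 CPM in MSC-sEV and 405 CPM in PBS (ratio 0.0410, 0.0125 to 0.106), and the protease inhibitor Cst3 was at 8239 CPM in MSC-sEV and 25595 CPM in PBS (ratio 0.322, 0.303 to 0.342). Over all C1q-positive cells 2 of the 39 were at least 2-fold lower, against 13.1% of all genes, and 4 at least 2-fold higher, against 23%. The median log2 ratio over those cells was -0.34.

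Of 16 transcription factors of microglia measured in the microglia-like clusters, 2 were at least 2-fold lower in MSC-sEV (Bhlhe41 and Sall3), against 6.63% of all genes, and 3 at least 2-fold higher (Cebpb, Runx1 and Batf3), against 14.2%. Over all C1q-positive cells 1 of 17 was at least 2-fold lower, against 13.1% of all genes, and 6 at least 2-fold higher, against 23%, with a median log2 ratio of 0.74. Bhlhe41, a helix-loop-helix repressor, was at 79.7 CPM in MSC-sEV and 367 CPM in PBS (ratio 0.217, 0.121 to 0.386), and Mef2c was at 312 CPM in MSC-sEV and 608 CPM in PBS (ratio 0.514, 0.359 to 0.744). In the transforming growth factor beta list 0 of 9 genes measured in the microglia-like clusters were at least 2-fold lower, against 6.63% of all genes, and 1 was at least 2-fold higher, against 14.2%. That 1 was Itgav, with 1 PBS UMI and an interval from 0.980 to 249. Over all C1q-positive cells 4 of 10 of the list were at least 2-fold higher, against 23% of all genes, and 0 lower, against 13.1%. The median log2 ratio of the list there was 0.86. In the microglia-like clusters the receptor gene Tgfbr1 was at 239 CPM in MSC-sEV and 443 CPM in PBS (ratio 0.540, 0.356 to 0.833). Of the other purinergic genes 3 of 19 were measured there and 0 passed 2-fold. Of the ligands that act on microglia, Tgfb2 was highest in Muller glia-like cells, at 537 CPM in MSC-sEV and 252 CPM in PBS over all UMIs, and Cx3cl1, the ligand of Cx3cr1, was at most 45.3 CPM in any group of at least 20 cells.

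Lists of reactive genes were read over the same cells. In the microglia-like clusters 7 of 7 measured alternative activation genes, 5 of 6 MHC class II genes and 4 of 6 monocyte-derived macrophage genes were at least 2-fold higher in MSC-sEV, against 14.2% of all genes. Their median log2 ratios were 2.01, 3.48 and 1.52. Among all C1q-positive cells the counts were 12 of 12, 7 of 8 and 12 of 12, against 23% of all genes. Measured genes had at least 20 drawn UMIs in the 2 libraries together. Arg1, with 525 UMIs in MSC-sEV and 0 in PBS in the microglia-like clusters, thus entered through MSC-sEV alone. Such a gene could not count as lower, so these counts do not set the lists apart from the members. The alternative activation and monocyte-derived lists also share Chil3, Retnla and Fn1. In the disease-associated microglia list 4 of 22 genes measured in the microglia-like clusters were at least 2-fold higher, against 14.2% of all genes, and 3 at least 2-fold lower, against 6.63%. Among all C1q-positive cells 11 of 24 were at least 2-fold higher, against 23% of all genes, and 3 lower, against 13.1%, with a median log2 ratio of 0.84. In the microglia-like clusters Igf1, a growth factor, was at 322 CPM in MSC-sEV and 12.7 CPM in PBS (1 UMI), with a ratio of 25.5 (4.46 to 1016), and Apoe, a lipid carrier, was at 6199 CPM in MSC-sEV and 12329 CPM in PBS (ratio 0.503, 0.465 to 0.544). Among all genes, those most clearly higher in MSC-sEV C1q-positive cells were Arg1, Ccl24, Chil3, Retnla, Retnlg, Ccl8, C3, Tgfbi, H2-Aa and H2-Ab1, and those most clearly lower were Cartpt, Pcp2, Hba-a1, Gng13, Pde6g, Hba-a2, Hbb-bs, Mgarp, Gngt1 and Rom1, mostly genes of retinal neurons and haemoglobin. Monocyte markers took 0.0129% of the UMIs of the microglia-like C1q-positive cells in MSC-sEV, with 10 of 10 markers seen, and 0.00154% in PBS, with 4 of 10 seen and Ly6c2, Ccr2, Vcan, Ifitm6 and Chil3 among those at 0. Rod markers took 0.518% in MSC-sEV and 1.38% in PBS, and their part in the members' ratios within these clusters was not tested.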

How the data were processed

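The authors deposited raw UMI counts for every gene and barcode. Per the labels' protocols, Cell Ranger 3.0.2 mapped the reads to mm10. Kept barcodes had at least 500 UMIs, 300 genes and at most 15% mitochondrial UMIs. Levels are UMI sums after drawing cells of at least 1000 UMIs down to 1000 UMIs (seed 7), which left out 22 shallower C1q-positive cells in MSC-sEV and 16 in PBS. Intervals are exact Poisson for levels, exact conditional binomial for ratios and Clopper-Pearson for shares, at 95%. In counts of 2-fold genes, fewer than 3 UMIs in a group were set to 3. Clusters came from scanpy 1.11.5 and Leiden without the 9 members, and were named from markers. Rebuilt names may differ from the study's. Scrublet called 7 doublets in MSC-sEV (0.301%) and 6 in PBS (0.445%), too few to rely on, so none were removed. The code for ratios and intervals was checked on counts simulated with known ratios. With 1 library per group no p-value was computed. The 9 members and all gene lists were chosen with earlier results of these data known. Named list genes were those with the most UMIs or the most extreme ratios, plus others chosen after their values were seen. A few list genes are not reported here.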

Additional observations from a re-analysis of the deposited data

Results flagged for a closer look

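Barcodes left out by the cell filter still held the members. In MSC-sEV 270 such barcodes had 106 member UMIs, or 251.3 CPM (205.7 to 303.9), and in PBS 329 such barcodes had 45 member UMIs, or 111.8 CPM (81.5 to 149.6). This is a signal outside the cells that were compared, higher in MSC-sEV than in PBS. All kept cells together had the same direction, at 1294.8 CPM in MSC-sEV and 757.7 CPM in PBS over all UMIs. Median mitochondrial shares in the left-out barcodes were 26.6% in MSC-sEV and 28.2% in PBS.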

How the results depend on the processing

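The summed ratio of the 9 members in C1q-positive cells, MSC-sEV over PBS, was 1.23 without drawing down, 0.740 with the C1q limit read after drawing down and 0.397 without cells in which retinal markers passed 2%. Those markers include Apoe, which the microglia-like cells also carried, so that setting did not leave out cells by retinal RNA alone. Added after seeing the data were the microglia-like clusters (0.687), cluster 6 (1.14), cluster 7 (0.529) and C1q of at least 0.5% of UMIs (0.690). The count of members at least 2-fold lower was 0 without drawing down, 6 without the cells rich in retinal markers, 1 without cells with monocyte genes and 4 in cluster 7. The share over all genes was not counted in these settings. The ratio of C1q-positive shares, 1.66 in the main setting, was 2.24 with the C1q limit read after drawing down and 5.31 without the cells rich in retinal markers. The ratio between cells with and without Arg1 turned round to 1.19 without drawing down and 1.15 with a C1q limit of 3 UMIs, and was 0.671, 0.647 and 0.701 in 3 other settings. Sall1 turned round to 0.852 without the cells rich in retinal markers. Over 19 alternatives P2ry12 ran from 0.185 to 0.591, Gpr34 from 0.255 to 0.581 and P2ry6 from 1.03 to 2.81, and over 11 alternatives the ratio of other leukocytes to C1q-positive cells ran from 0.0620 to 0.0948. Why the values moved between settings was not tested. No paired analysis was possible because each group has 1 library. The PBS counts, with 12 drawn UMIs for Sall1 and 16 for P2ry13, limit what these ratios can show.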
